A study of Homo sapiens with 9 samples.

Results

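The genes examined here were AZGP1, PDZD3 and proximal tubule surface genes, 9 named genes of the 27673 in a table of RNA sequencing counts. They are AZGP1, PDZD3, PDZK1, LRP2, CUBN, GGT1, ANPEP, MME and DPP4, and their rows were found by gene name. AZGP1 and PDZD3 were chosen because they stood among the 3 largest falls after depletion of ARNT, so their values in that comparison are a description and were not tested. The other 7 genes encode proteins of the same apical surface.

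The proximal tubule reclaims filtered proteins, peptides and solutes through a dense brush border of microvilli. Megalin (LRP2) and cubilin (CUBN) take up filtered proteins by endocytosis, ectoenzymes such as γ-glutamyltransferase (GGT1), aminopeptidase N (ANPEP), neprilysin (MME) and dipeptidyl peptidase 4 (DPP4) cleave peptides at the surface, and PDZ-domain scaffolds of the NHERF family, among them PDZK1 and PDZD3, hold transporters and receptors in place. AZGP1 (zinc-α2-glycoprotein) is a secreted protein with the fold of a class I histocompatibility heavy chain. Clear cell renal cell carcinoma (ccRCC) is generally traced to this epithelium.

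All libraries came from A498, an established line of human ccRCC, in which lentiviral pLKO.1 vectors carried an shRNA and infected cells were selected with puromycin. The groups were shControl (a control hairpin), shBMAL1 (against BMAL1, the clock partner of CLOCK) and shARNT (against ARNT, the usual dimer partner of HIF1α and HIF2α), each with 3 biological replicates. The study asked how far BMAL1, like ARNT, contributes to transcription driven by HIF2α in ccRCC cells. Each depletion rests on 1 hairpin in 1 cell line, and the labels do not say whether replicates were separate infections, so the p-values measure the spread between these samples, which may be technical.

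Library totals ranged from 35269857 to 36099083 counts, and 15551 genes passed the filter on low counts. Levels are given as CPM, counts scaled to a common library size after correction by TMM (trimmed means). The correction factor was lowest in shControl (0.932 to 0.944), intermediate in shBMAL1 (0.961 to 0.971) and highest in shARNT (1.10 to 1.11). ARNT was at 50.5 CPM in shControl, 32.3 in shBMAL1 and 9.47 in shARNT, and BMAL1, listed as ARNTL, was at 16.3, 5.02 and 23.8 CPM. EPAS1, which encodes HIF2α, was at 345, 233 and 74.3 CPM. In bulk RNA, fewer cells of a type and less RNA per cell cannot be told apart.

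The line kept only part of the proximal tubule programme. The summed level of 15 markers of renal epithelium and ccRCC was 8563 to 8626 CPM in shControl, 6268 to 6759 in shBMAL1 and in shARNT it was 2290 to 2454 CPM, with VIM the largest part. Single markers went both ways: CDH16, a kidney cadherin, averaged 7.60, 22.3 and 3.01 CPM in the same order, KRT19 9.58, 18.8 and 3.41 CPM, and KRT18 566, 472 and 563 CPM. HNF4A, a transcription factor of this segment, averaged 304 CPM in shControl, 141 in shBMAL1 and 17.1 in shARNT, and PAX8, a renal lineage factor, averaged 36.0, 40.7 and 100.3 CPM. The organic anion transporters SLC22A6 and SLC22A8 had 0 counts in all 9 libraries, AMN, the membrane anchor of cubilin, had 0 to 8 counts, and the phosphate transporter SLC34A1 had 0 to 6. Other transporters of the segment were expressed in shControl, among them SLC4A4 (229 CPM), SLC5A2 (21.3 CPM) and SLC3A1 (10.4 CPM). The genes are therefore called proximal tubule surface genes after their known site of expression, since several other genes of that segment had few or no counts. Of 14 markers of other nephron segments, 3 were at 0 throughout, UMOD, PVALB and AQP2, and the summed level of the list was 13.0 to 15.2 CPM in the shControl libraries. It was 20.1 to 20.99 CPM after BMAL1 depletion and 1.86 to 2.33 CPM after ARNT depletion. Within the list AQP3, a water channel, was at 5.36, 15.7 and 1.09 CPM in shControl, shBMAL1 and shARNT, and SLC26A4, an anion exchanger, at 6.75, 4.12 and 0.564 CPM. For 14 markers of endothelium, stroma and leukocytes the sum was 2089 to 2205, 1843 to 1955 and 207 to 208 CPM. Most of it was CD68 (1865, 1792 and 142 CPM), followed by COL1A1 (237, 35.7 and 45.4 CPM) and ACTA2 (57.6, 54.0 and 19.6 CPM). PTPRC, PECAM1 and CDH5 had at most 12 counts in any library. All 3 sums were lower in shARNT, as were the genes below, while in shBMAL1 the sum for other nephron segments was higher and the other 2 were lower. The part of these markers in the results was not tested.

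Promoter sequence is shown for the gene with the largest fall among the 9 and for the 2 genes that were higher after BMAL1 depletion, since the depleted factors bind short DNA motifs. RefSeq windows on GRCh38.p14 were found for 8 of the 9 genes, 14 windows in all, and PDZD3 was not among them. Each window printed holds the 250 bases before an annotated start, 5′ to 3′ on the strand of the gene. Capitals mark matches on either strand to CACGTG, the E-box bound by BMAL1 and CLOCK, or to ACGTG and GCGTG, the core of hypoxia response elements. CACGTG contains ACGTG on both strands, so these matches overlap.
AZGP1, chr7:99976032-99976281, minus strand: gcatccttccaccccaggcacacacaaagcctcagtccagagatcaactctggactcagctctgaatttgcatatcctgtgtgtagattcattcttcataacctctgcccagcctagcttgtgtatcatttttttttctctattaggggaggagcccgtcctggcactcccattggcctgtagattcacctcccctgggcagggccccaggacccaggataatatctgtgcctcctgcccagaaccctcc
ANPEP, second of 2 windows, chr15:89806629-89806878, minus strand: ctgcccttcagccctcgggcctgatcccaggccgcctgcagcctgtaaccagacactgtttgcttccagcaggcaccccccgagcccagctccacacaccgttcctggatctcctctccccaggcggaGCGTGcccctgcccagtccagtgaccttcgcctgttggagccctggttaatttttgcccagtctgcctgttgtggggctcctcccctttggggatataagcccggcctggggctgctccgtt
DPP4, chr2:162074216-162074465, minus strand: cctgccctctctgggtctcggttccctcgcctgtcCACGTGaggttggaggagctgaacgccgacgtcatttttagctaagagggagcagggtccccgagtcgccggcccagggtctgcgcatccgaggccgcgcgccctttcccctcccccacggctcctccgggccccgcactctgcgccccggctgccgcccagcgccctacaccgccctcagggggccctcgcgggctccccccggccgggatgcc

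The AZGP1 window held none of the 3 motifs. The ANPEP window held a single GCGTG, starting 122 bases before the annotated start, and the first ANPEP window held no match. The DPP4 window held a single CACGTG that starts 215 bases before the start. Of all 35116 windows of this length, 6.34% held CACGTG, 18.5% ACGTG, 32.2% GCGTG and 43.2% any of them, against 4 of the 14 windows of these genes. The other windows with a match belonged to LRP2 and MME. A match is a run of letters and was not tested as a binding site, and a factor can bind elsewhere.

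AZGP1 (chromosome 7, 99564343 to 99573665, GRCh37, minus strand) had 3055, 2895 and 2975 counts in the shControl libraries. It had 1086, 1214 and 993 in shBMAL1 and 53, 28 and 29 in shARNT. The groups did not overlap, and the order was the same in every pairing of libraries, with shControl highest, shBMAL1 between and shARNT lowest.

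As levels, AZGP1 averaged 89.9 ± 1.92 CPM (SD, n = 3) in shControl, 32.1 ± 3.03 in shBMAL1 and 0.926 ± 0.357 in shARNT. The shARNT level was 1.03% of the control level, a log2 fold change of -6.60 that served to choose the gene and carries no test. The shBMAL1 level was 35.7% of control, or -1.49 in log2 terms with an SE of 0.0766, and this difference passed the edgeR quasi-likelihood test (Benjamini-Hochberg adjusted p = 2.10e-12). The control libraries are shared with the comparison that chose the gene. Between the depletions AZGP1 was 5.11 lower on the log2 scale in shARNT than in shBMAL1, again without a test.

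PDZD3 (chromosome 11, 119056166 to 119060932, plus strand), now also named NHERF4, encodes a scaffold with PDZ domains that binds guanylyl cyclase C and transporters. Its counts were 374, 433 and 500 in shControl, 145, 147 and 103 in shBMAL1, and 7, 9 and 5 in shARNT. The 3 groups were separate, and the shARNT libraries held so few reads that their level is known only roughly.

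PDZD3 averaged 13.2 ± 1.95 CPM in shControl, 3.85 ± 0.708 in shBMAL1 and 0.177 ± 0.0508 in shARNT (SD, n = 3). The shARNT level was 1.34% of control (log2 fold change -6.19, used for the choice and not tested). In shBMAL1 PDZD3 fell to 29.2% of control, or by 1.78 in log2 terms (SE 0.147, adjusted p = 2.66e-09, by the same edgeR test), with the same shared control libraries. Of 4538 genes called lower after ARNT depletion with a mean log2 CPM of 2 or more and without overlap between the groups, IGFBP3 (-6.60), AZGP1 and PDZD3 headed the order. CA9 stood just outside the choice at -6.17.

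PDZK1 (chromosome 1, 145726918 to 145764207), the scaffold also known as NHERF3, had 3407, 3449 and 3420 counts in shControl. It had 1286, 1397 and 1253 in shBMAL1 and 785, 823 and 942 in shARNT. All depleted libraries were below all control libraries, and shARNT lay below shBMAL1 without overlap.

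PDZK1 fell to 20.7% of control in shARNT (log2 fold change -2.27, SE 0.0623, adjusted p = 1.19e-17 by the edgeR quasi-likelihood test). In shBMAL1 it fell to 37.0% of control (-1.43, SE 0.0597, adjusted p = 8.43e-14). The direct comparison of the depletions gave a further fall of 0.84 on the log2 scale in shARNT (SE 0.0638, adjusted p = 2.07e-10, edgeR). PDZK1 has a near-identical pseudogene copy, and how reads that fit both were counted is not given in the sources used here.

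**Figure D1:**
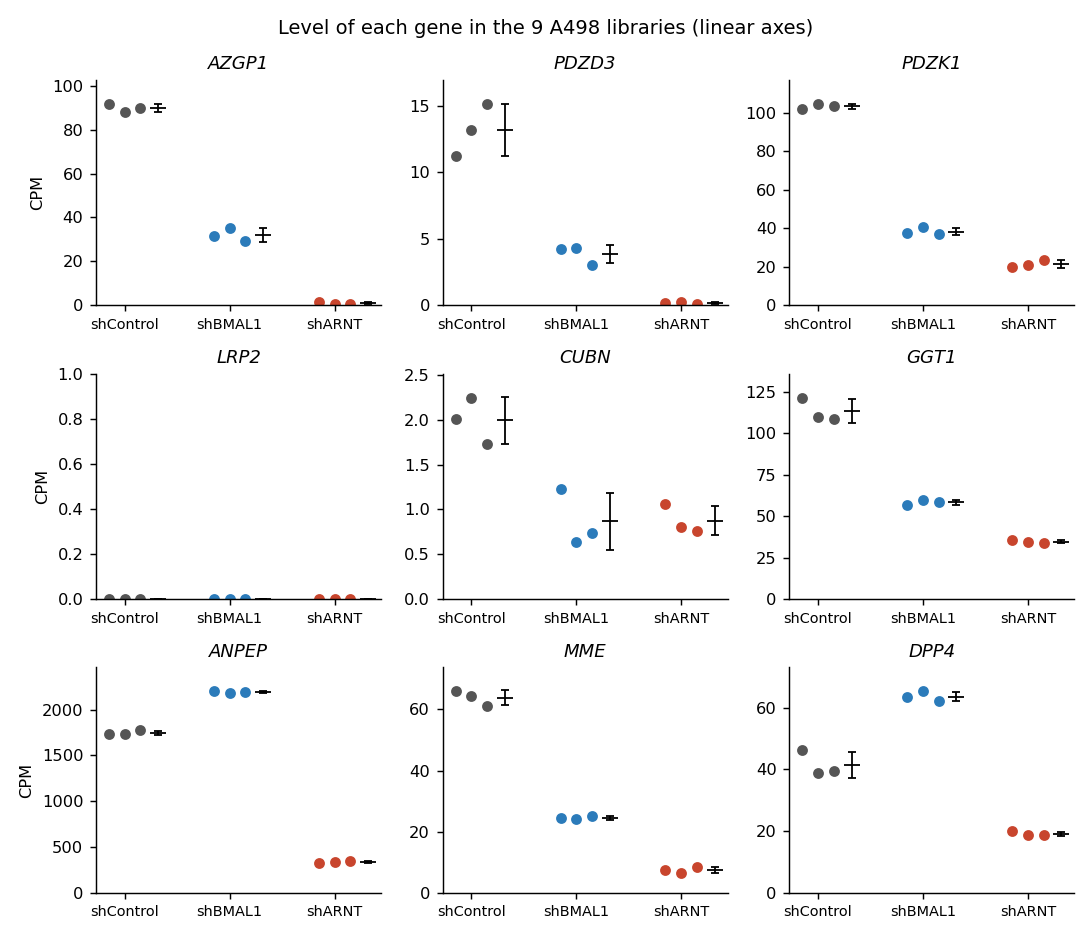
Level of each of the 9 genes in CPM (y axis, linear, from 0, a separate scale per gene) in the 3 libraries of shControl, shBMAL1 and shARNT (points, replicates 1 to 3 from left to right), with the mean and SD of each group beside them. AZGP1, PDZD3, PDZK1, GGT1 and MME step down from shControl to shBMAL1 to shARNT, ANPEP and DPP4 are highest in shBMAL1 and lowest in shARNT, and LRP2 is at 0 throughout.

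LRP2 (chromosome 2, 169983619 to 170219044), the gene of megalin, had 0 counts in all 9 libraries. A count of 0 allows up to 3 counts, which is 0.0756 to 0.0911 CPM depending on the library and covers counting error only. No group could be compared for LRP2.

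CUBN (chromosome 10, 16865965 to 17171810), the gene of cubilin, was detected at a low level, with 67, 74 and 57 counts in shControl, 42, 22 and 25 in shBMAL1, and 42, 32 and 30 in shARNT. Both depleted groups lay below the control libraries, and they overlapped each other.

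CUBN fell to 43.9% of control in shARNT (log2 fold change -1.19, SE 0.265, adjusted p = 4.16e-04, edgeR quasi-likelihood test) and to 43.5% in shBMAL1 (-1.20, SE 0.271, adjusted p = 7.75e-04). Between the depletions the log2 difference was 0.01 with a 95% interval from -0.59 to 0.62 (adjusted p = 0.970, edgeR), so differences inside that interval were not excluded. Of the 6 genes tested between the depleted groups, CUBN alone was not called. Over all genes tested, 81.2% were called in that comparison.

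GGT1 (chromosome 22, 24990778 to 25024972), which cleaves the γ-glutamyl bond of glutathione outside the cell, had 4040, 3615 and 3585 counts in shControl. It had 1938, 2046 and 1991 in shBMAL1 and 1405, 1369 and 1337 in shARNT. The 3 groups followed each other downwards without overlap.

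GGT1 averaged 113 ± 7.06, 58.2 ± 1.38 and 34.6 ± 0.892 CPM in shControl, shBMAL1 and shARNT (SD, n = 3). The fall was 1.71 on the log2 scale in shARNT (SE 0.0526, adjusted p = 7.68e-17, edgeR quasi-likelihood test) and 0.96 in shBMAL1 (SE 0.0511, adjusted p = 3.36e-12). The direct difference was -0.75 (SE 0.0533, adjusted p = 6.56e-11, edgeR). GGT1 has close copies, and it held 95.5% to 96.9% of the reads given to GGT1, GGT2, GGTLC1 and GGTLC2 in each library, but how shared reads were divided among them is not given.

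ANPEP (chromosome 15, 90328126 to 90358633), a zinc aminopeptidase that trims the amino end of peptides, had the highest level per transcript length of the 9 genes in every group. Its counts were 57658, 56959 and 58580 in shControl, 75129, 74953 and 74373 in shBMAL1, and 13014, 13283 and 13745 in shARNT. The depleted groups lay on opposite sides of the control libraries.

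ANPEP averaged 1745 ± 24.5 CPM in shControl, 2187 ± 10.8 in shBMAL1 and 337 ± 8.93 in shARNT (SD, n = 3). It fell to 19.3% of control in shARNT (log2 fold change -2.37, SE 0.0335, adjusted p = 3.92e-22, edgeR quasi-likelihood test). It rose to 125% of control in shBMAL1 (0.33, SE 0.0317, adjusted p = 3.01e-08), and the difference between the depletions was -2.70 (SE 0.0339, adjusted p = 7.80e-23, edgeR). This was the largest difference between the depletions among the 6 genes tested for it.

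MME (chromosome 3, 154741913 to 154901493), a zinc endopeptidase that degrades small signalling peptides, had 2192, 2121 and 2019 counts in shControl. It had 831, 830 and 853 in shBMAL1 and 295, 251 and 335 in shARNT. The groups were separate and stepped down in the order of AZGP1 and PDZD3.

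MME fell to 11.6% of control in shARNT (log2 fold change -3.10, SE 0.0783, adjusted p = 2.94e-18, edgeR quasi-likelihood test). This was the largest fall among the genes that were not chosen by it, and 2.29% of all genes tested had a lower value. In shBMAL1 MME fell to 38.4% of control (-1.38, SE 0.0695, adjusted p = 1.47e-12), and the direct difference was -1.72 (SE 0.0812, adjusted p = 7.92e-14, edgeR).

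DPP4 (chromosome 2, 162848755 to 162930904), a serine peptidase that removes dipeptides and degrades incretins, had 1545, 1277 and 1302 counts in shControl. It had 2174, 2249 and 2112 in shBMAL1 and 788, 745 and 747 in shARNT. As for ANPEP, the shBMAL1 libraries were the highest and the shARNT libraries the lowest, without overlap.

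DPP4 averaged 41.5 ± 4.23, 63.7 ± 1.59 and 19.2 ± 0.615 CPM in shControl, shBMAL1 and shARNT (SD, n = 3). Its log2 level dropped by 1.11 in shARNT (SE 0.0675, adjusted p = 4.77e-12, edgeR quasi-likelihood test) and rose by 0.62 in shBMAL1 (SE 0.0632, adjusted p = 6.27e-08). The direct difference was -1.73 (SE 0.0665, adjusted p = 2.93e-15, edgeR).

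The annotation places antisense transcripts over AZGP1, MME and DPP4 and a longer gene model on the same strand over GGT1. The libraries were stranded, but whether strand was used in counting is not given in the sources used here.

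**Figure D2:**
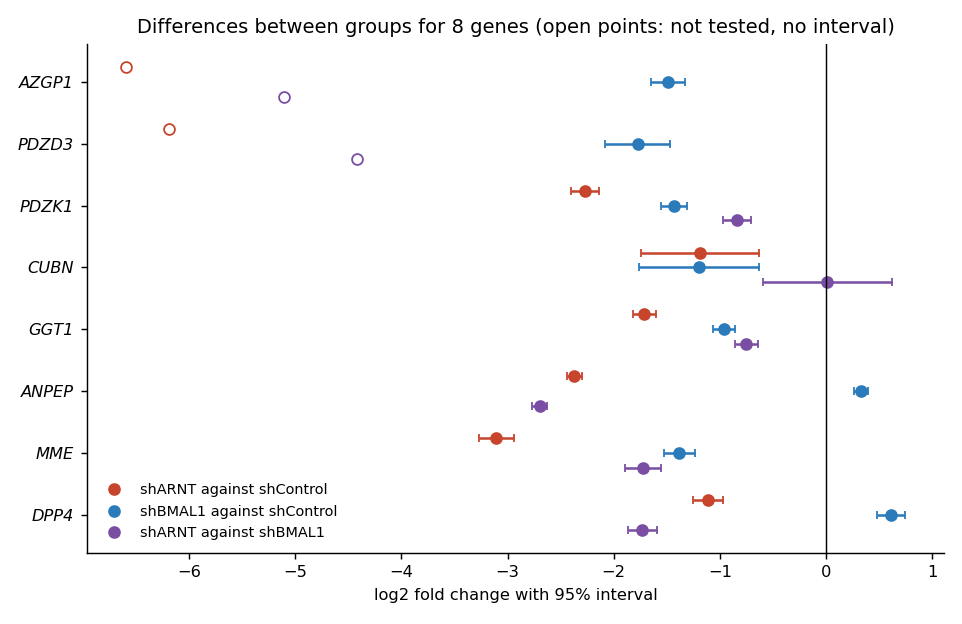
Log2 fold change (x axis) of the 8 genes with reads for each depletion relative to control and for shARNT relative to shBMAL1, with 95% intervals of the edgeR fit on filled points. Open points mark the comparisons of AZGP1 and PDZD3 that were not tested, at -6.60, -6.19, -5.11 and -4.42, and ANPEP (0.33) and DPP4 (0.62) are the points to the right of 0 for shBMAL1.

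After ARNT depletion, 6 of the 6 genes tested were lower, and each of them by at least 2-fold. Over all 15551 genes, 41.3% were called lower and 40.5% higher, 19.2% were called with at least a 2-fold fall and 12.4% with at least a 2-fold rise. After BMAL1 depletion, 6 of 8 genes were lower and 2 higher, against 31.5% and 31.9% of all genes. In that comparison 5 of the 8 had fallen at least 2-fold and 0 had risen as much, against 5.51% and 4.73%. Directly between the depletions, 5 of 6 genes were lower in shARNT and 0 higher, against 41.1% and 40.1%, and 3 were at least 2-fold lower, against 18.7% of all genes lower and 12% higher by that much. The counts describe genes chosen with results of these data known. The control libraries were the same for shARNT and shBMAL1.

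To compare levels between genes, CPM was divided by the length of the longest annotated transcript in kb. In shControl ANPEP stood at 454 ± 6.37 CPM per kb, followed by PDZK1 (49.7 ± 0.583), AZGP1 (44.4 ± 0.946), GGT1 (43.0 ± 2.68), MME (11.05 ± 0.419), DPP4 (4.86 ± 0.495), PDZD3 (4.397 ± 0.651) and CUBN (0.167 ± 0.0219), all SD over 3 libraries. AZGP1 and GGT1 overlapped across libraries, as did DPP4 and PDZD3. In shBMAL1 the order was ANPEP (569), GGT1 (22.1), PDZK1 (18.4), AZGP1 (15.8), DPP4 (7.45), MME (4.24), PDZD3 (1.28) and CUBN (0.0727), with no overlap of neighbours. In shARNT the order was ANPEP (87.7), GGT1 (13.1), PDZK1 (10.3), DPP4 (2.25), MME (1.28), AZGP1 (0.457), CUBN (0.0734) and PDZD3 (0.0590), and the last pair overlapped.

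On this scale AZGP1 moved from the third to the sixth place. The length decides part of this order: with the transcript tagged canonical, a choice made after the data were seen, AZGP1 was at 76.1 CPM per kb in shControl, second after ANPEP, and DPP4 (11.6 ± 1.18) and MME (11.3 ± 0.428) overlapped. On that scale AZGP1 was again in the sixth place in shARNT, but it overlapped with MME. The place of AZGP1 in shControl and its separation from MME in shARNT thus depend on the length.

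The genes whose pattern was most like that of AZGP1 were found by the root mean square difference of centred log2 CPM over the 9 libraries, among 11221 genes whose mean log2 CPM was 2 or more. They were IGFBP3 (an IGF-binding protein, difference 0.408), CA9 (carbonic anhydrase IX, 0.426), TM4SF5 (a tetraspan membrane protein, 0.464), SEMA5B (a semaphorin, 0.472) and SERPINA1 (α1-antitrypsin, 0.495). For PDZD3 they were C6 (a complement component, 0.312), SERPINA1 (0.325), SEMA5B (0.363), CA9 (0.390) and TM4SF5 (0.396). 4 genes were in both groups of 5. AZGP1 and PDZD3 were both chosen by their fall in shARNT, and that fall makes up much of the pattern compared. Genes with falls of like size therefore stood near both through the choice itself, and the shared genes are no separate result. IGFBP3 went from 8186 CPM in shControl to 4716 in shBMAL1 and 84.1 in shARNT, and SERPINA1 went from 248 to 76.7 and 4.49.

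Among the 9 genes the difference between AZGP1 and PDZD3 was 0.466. The closest pair was GGT1 and PDZK1 at 0.267, ANPEP and DPP4 stood at 0.546, and AZGP1 and CUBN were the farthest apart at 2.53. The points share libraries and the 3 group means, so these values only describe the patterns. The nearness of AZGP1 and PDZD3 also follows in part from their choice by the same fall.

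**Figure D3:**
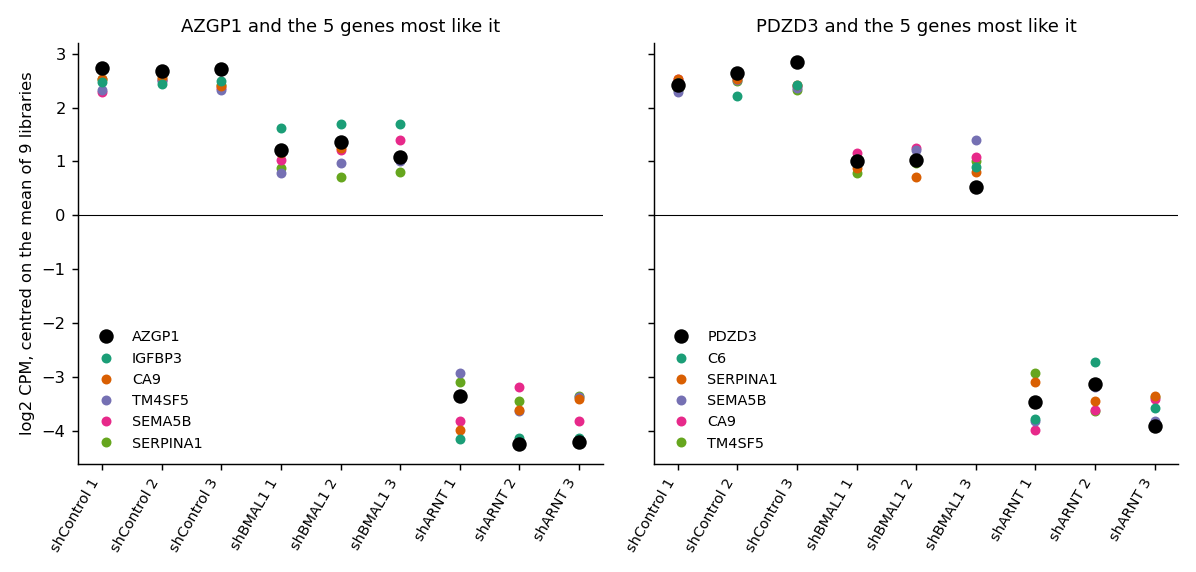
Log2 CPM centred on the mean of the 9 libraries (y axis) for AZGP1 (left, black) and PDZD3 (right, black) and the 5 genes most like each (colours), in each library (x axis). In both panels the shControl libraries lie between 2 and 3, the shBMAL1 libraries between 0 and 2, and the shARNT libraries below -2.

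The nearest tested neighbours on the chromosome were read beside AZGP1 and PDZD3, a choice made after values were seen. NLRX1, 1441 bases from PDZD3, differed by -0.15 in shARNT (adjusted p = 0.0679, edgeR quasi-likelihood test), and CCDC153, 27 bases beyond it at 0.535 CPM in shControl, fell by 1.39 (adjusted p = 0.00653). The neighbour TRIM4 of AZGP1, 47189 bases away, had a log2 fold change of -0.06 in shARNT (adjusted p = 0.348, edgeR), and ZKSCAN1, 39530 bases away on the other side, fell by 0.49 (adjusted p = 8.99e-07).

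Other genes were read from 9 lists, of which 142 of 197 genes were tested. The lists hold surface genes and their partners, endocytic machinery, metabolic genes of the segment and relatives by structure. Many of these genes do not encode proteins of the apical surface. All calls are from the edgeR quasi-likelihood test at a Benjamini-Hochberg adjusted p under 0.1. Over all genes tested the median lay between -0.01 and 0 in each comparison. Of all genes tested, 41.3% were called lower and 40.5% higher in shARNT, and 31.5% and 31.9% in shBMAL1. The list counts below are to be read beside these shares, and no list was tested as a set. In these comparisons 16 list genes reached the filter's cut-off of 0.282 CPM on 1 side only, so that the filter favoured a difference in that direction. For this reason counts are also given for genes with a mean of at least 1 CPM over all 9 libraries, a choice made after the data were seen.

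Of 16 tested NHERF scaffolds and membrane partners, 13 fell and 2 rose in shARNT (median log2 fold change -0.54), and 8 fell and 7 rose in shBMAL1 (median -0.15). SLC9A3R1, the founding NHERF scaffold, averaged 521 CPM in shControl, 397 in shBMAL1 and 281 in shARNT and fell in both depletions (-0.39 and -0.89). SLC9A3R2, its closest relative, rose in both by 1.29. MSN, the gene of moesin, fell by 0.29 in shARNT and 0.50 in shBMAL1, and ABCC2, an organic anion exporter, fell by 0.24 and rose by 0.40. Under library size alone the shARNT values of MSN and ABCC2 were -0.05 and -0.01 and not called. GUCY2C, the guanylyl cyclase C that PDZD3 binds, had 53 to 85 counts in the control libraries, 26 to 36 after BMAL1 depletion and at most 2 after ARNT depletion, and it passed the filter only through the other groups. At a mean of at least 1 CPM, 12 of 14 fell and 2 rose in shARNT.

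Of 17 genes of the endocytic receptor machinery, 6 fell and 9 rose in shARNT (median 0.31), and 7 fell and 7 rose in shBMAL1 (median 0.05). FOLR1, the folate receptor, fell from 11.7 CPM to 2.08 in shBMAL1 and 0.387 in shARNT. CLTC, the clathrin heavy chain, fell by 1.32 in shBMAL1 and rose by 0.59 in shARNT. RAB7A, a late endosomal GTPase, rose by 0.18 and 0.37. LRPAP1, the chaperone of megalin, fell by 0.54 in shBMAL1 and by 0.31 in shARNT, and the latter was -0.08 and not called under library size alone. All 17 had a mean of at least 1 CPM.

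Of 13 other brush border peptidases and ectoenzymes, 10 were called lower and 2 higher in shARNT (median -2.51), and 5 lower and 4 higher in shBMAL1 (median -0.27). XPNPEP2 and DPEP1 in both depletions, and ALPL in shARNT, were under the filter's cut-off in the depleted group. At a mean of at least 1 CPM, 6 of 7 fell and 1 rose in shARNT (median -1.80), and 2 fell and 4 rose in shBMAL1, where the median turned to 0.42. ENPP3, a nucleotide pyrophosphatase, averaged 101 CPM in shControl, 16.2 in shBMAL1 and 1.78 in shARNT. ENPEP, the aminopeptidase A that cleaves angiotensin II, averaged 158, 133 and 14.5 CPM. PRCP, a carboxypeptidase, showed the order of ANPEP and DPP4, with 109 CPM in shControl, 215 in shBMAL1 and 31.2 in shARNT. NT5E, the ecto-5′-nucleotidase CD73, rose from 11.2 to 85.7 CPM in shBMAL1 and stood at 9.04 in shARNT. XPNPEP2, an aminopeptidase P, had 12 to 16 counts in the shControl libraries and 0 in all depleted libraries, at least 5.59-fold lower in shARNT and 4.83-fold lower in shBMAL1 against a floor of 3 counts per library. With XPNPEP2 at that bound, the median in shARNT was -2.48.

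Of 18 genes of the microvillus core and its adhesion links, 12 fell and 4 rose in shARNT (median -1.26), and 14 fell and 2 rose in shBMAL1 (median -1.14). The actin bundlers PLS3 (305, 117 and 360 CPM in shControl, shBMAL1 and shARNT) and FSCN1 (312, 120 and 240 CPM) were lowest in shBMAL1. EPS8L2, an actin regulator, was the most abundant of these genes, fell by 0.70 in shBMAL1 and rose by 0.75 in shARNT. MYO7B, the myosin of the adhesion links between microvilli, fell from 3.60 CPM to 0.467 in shBMAL1 and 0.135 in shARNT. VIL1, the gene of villin, had 8 to 16 counts in shControl, 0 in all shBMAL1 libraries and 7 to 11 in shARNT, at least 4.13-fold lower in shBMAL1 than in shControl. VIL1 in shBMAL1 and MYO7B in shARNT were under the cut-off in the lower group. At a mean of at least 1 CPM, 11 of 15 fell and 4 rose in shARNT, and 12 fell and 2 rose in shBMAL1.

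Of 19 proximal tubule transporters, 11 fell and 5 rose in shARNT (median -0.41), and 9 fell and 4 rose in shBMAL1 (median -0.34). SLC4A4, the bicarbonate exit transporter, fell from 229 to 38.6 CPM in shARNT and stood at 227 CPM in shBMAL1 (log2 fold change -0.01, adjusted p = 0.860, edgeR). SLC47A2, an organic cation exporter, rose from 83.6 to 195 CPM in shBMAL1 and 148 in shARNT. ABCB1, the multidrug exporter, fell from 103 to 46.5 CPM in shBMAL1 and stood at 107 in shARNT (log2 fold change 0.06, adjusted p = 0.451, edgeR), a value that became 0.29 and was called under library size alone, and 0.13 and called without the first shControl library. SLC23A1, a vitamin C transporter, fell from 4.16 CPM to 0.720 in shBMAL1 and 0.488 in shARNT. SLC22A2, an organic cation transporter, had at most 3 counts in any shControl or shBMAL1 library and 13 to 30 after ARNT depletion, and it passed the filter only there. At a mean of at least 1 CPM, 9 of 15 transporters fell and 4 rose in shARNT, and 8 fell and 4 rose in shBMAL1.

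Of 14 metabolic genes of the segment, 8 fell and 3 rose in shARNT (median -1.32), and 7 fell and 2 rose in shBMAL1 (median -0.48). GPX3, the secreted glutathione peroxidase, fell from 417 to 152 CPM in shARNT and stood at 414 in shBMAL1 (log2 fold change -0.01, adjusted p = 0.810, edgeR). KMO and ACMSD, enzymes of tryptophan breakdown, fell in shARNT from 63.1 to 9.38 and from 8.97 to 1.14 CPM, and in shBMAL1 to 53.8 and 5.67 CPM. ACSM2B, a medium-chain acyl-CoA synthetase, had 11 to 19 counts in shControl, 0 in all shBMAL1 libraries and at most 2 in shARNT, and DDC, an amino acid decarboxylase, had 8 to 13, 0 to 2 and 15 to 23. At a mean of at least 1 CPM, 5 of 7 fell and 1 rose in shARNT, and 4 fell and 0 rose in shBMAL1.

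Relatives by structure were read in the same way. Of 10 class I fold relatives of AZGP1 outside the HLA genes, 8 fell and 1 rose in shARNT (median -0.62), whereas 0 fell and 7 rose in shBMAL1 (median 0.44). At an unadjusted p under 0.05 the edgeR counts in shBMAL1 were also 0 and 7, and DESeq2 called 1 gene lower. At that limit, which is stricter here than the adjusted one, the peptidase relatives in shARNT gave 13 lower and 7 higher, and directly between the depletions the NHERF partners gave 11 and 2 and the transporters 9 and 5. The other list counts were the same. B2M, the light chain of class I molecules, averaged 696 CPM in shControl, 1026 in shBMAL1 and 531 in shARNT. PROCR, the endothelial protein C receptor, averaged 110 ± 0.688, 144 ± 12.5 and 31.9 ± 1.21 CPM (SD, n = 3). MR1, which presents vitamin metabolites, rose by 0.30 in shBMAL1 and fell by 0.56 in shARNT. ULBP3, an NKG2D ligand, rose by 0.57 in shBMAL1, a value of 0.38 that was not called without the first shControl library.

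Of 22 close relatives of the peptidases, 14 fell and 8 rose in shARNT (median -0.59), and 6 fell and 6 rose in shBMAL1 (median -0.01). ECE1, the endothelin-converting relative of MME, fell from 372 to 114 CPM in shARNT and stood at 374 in shBMAL1. ERAP1 and NPEPPS, aminopeptidases of the family of ANPEP, both rose in shBMAL1 (1.19 and 0.59), and in shARNT ERAP1 fell by 0.61 while NPEPPS rose by 1.05. DPP7, a dipeptidyl peptidase of lysosomes, fell by 0.38 in shARNT and stood at 0.03 in shBMAL1 (adjusted p = 0.474, edgeR), a value that was 0.08 and called under library size alone. GGTLC1 and GGTLC2, short relatives of GGT1, had 2 to 27 and 30 to 107 counts per library. AQPEP, KEL and GGTLC1 were under the cut-off in shARNT, and at a mean of at least 1 CPM 10 of 18 fell and 8 rose there.

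Of 13 LDL receptor family genes, which include the relatives of LRP2, 7 fell and 5 rose in shARNT (median -0.38), and 4 fell and 7 rose in shBMAL1 (median 0.09). LRP1 was the most abundant, at 2472 CPM in shControl, 1568 in shBMAL1 and 726 in shARNT. LRP5, a Wnt coreceptor, fell by 0.30 in shBMAL1 and rose by 0.52 in shARNT. LRP10 fell by 0.65 in shARNT, and its rise of 0.09 in shBMAL1 was not called without the third library of shControl or of shBMAL1 (0.08 and 0.06). LRP4 rose from 60.99 to 146 CPM in shBMAL1 and fell to 46.9 in shARNT. SORL1, a sorting receptor, rose from 1.67 CPM to 7.90 and 7.36.

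**Figure D4:**
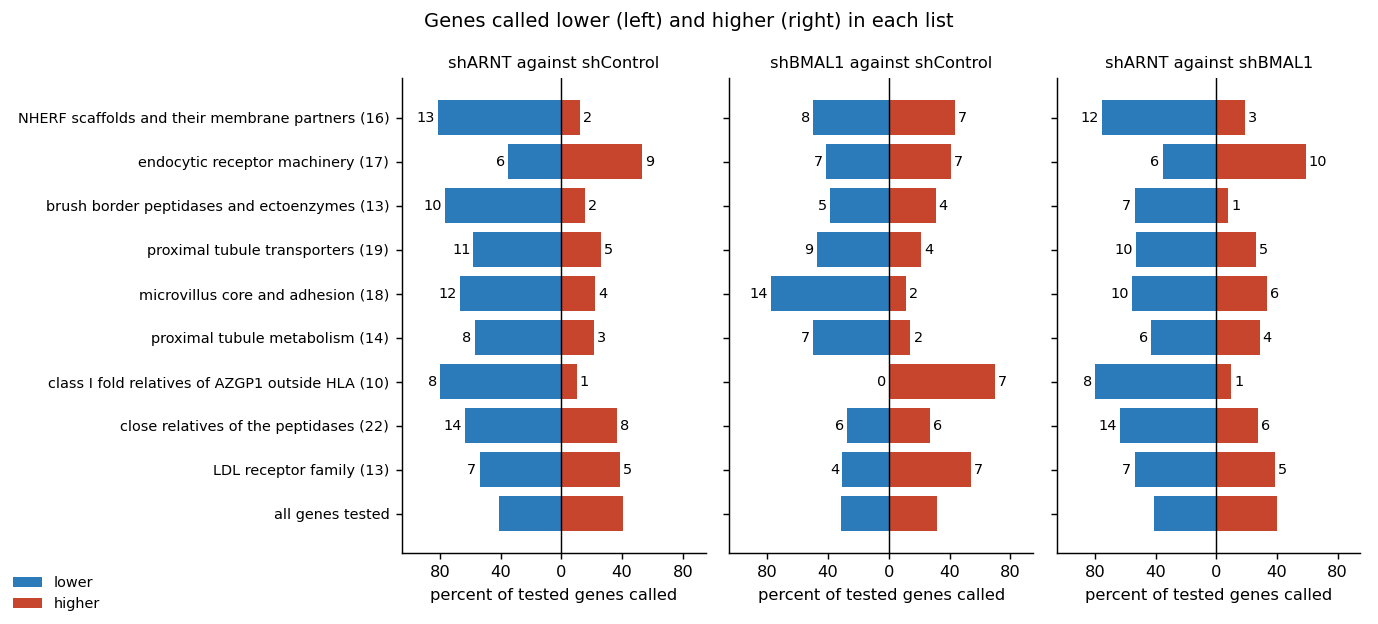
Share of tested genes called lower (left, blue) and higher (right, red) in each of 9 lists and among all genes tested (bottom bars), for the 3 comparisons. Numbers at the bars count the called genes and numbers in brackets those tested. Of the brush border peptidases and ectoenzymes 10 of 13 were lower in shARNT (6 of 7 at a mean of at least 1 CPM), of the microvillus genes 14 of 18 were lower in shBMAL1, and of the class I relatives 7 of 10 were higher in shBMAL1.

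Directly between the depletions, the lists gave 12 lower and 3 higher in shARNT for the NHERF partners (median -0.57), 6 and 10 for the endocytic machinery (0.23), and 7 and 1 for the peptidases and ectoenzymes (-0.94). The microvillus genes gave 10 lower and 6 higher (-0.53), the transporters 10 and 5 (-0.40) and the metabolic genes 6 and 4. The class I relatives gave 8 and 1 (-0.93), the peptidase relatives 14 and 6 (-0.43), and the LDL receptor family 7 and 5 (-0.57). Of all genes tested, 41.1% were called lower and 40.1% higher in this comparison. For the metabolic genes the median was 0.14, 0.04 with the genes at 0 set to their bound, and -2.01 over the 7 with a mean of at least 1 CPM. At that mean, 10 of 14 NHERF partners were lower and 3 higher. Of 7 peptidases and ectoenzymes, 7 were lower and 0 higher. For 15 microvillus genes the counts were 10 and 5, and for 15 transporters 8 and 4. For 7 metabolic genes they were 5 and 2, for 9 class I relatives 7 and 1, and for 18 peptidase relatives 11 and 6. All tested endocytic and LDL receptor family genes reached that mean.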

How the data were processed

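RNA from A498 cells was sequenced in 9 libraries, 3 per group. Per the methods, reads were mapped to GRCh37 with SeqMan NGen and quantified in ArrayStar, while the submitters' processing notes name STAR, DESeq2 and hg38. The authors deposited 1 table of expected counts per gene name, mostly whole numbers, with 720 to 787 fraction values per library and 0.05 for no reads. Strand use and the counting of pairs are not given in the sources used here.

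Values were rounded, rows of the same name were summed except for 28 rows named by a date, and groups were taken from the labels. All 9 libraries entered the quasi-likelihood test of edgeR 4.0.16 (R 4.3.3) with TMM scaling, filterByExpr, Benjamini-Hochberg adjustment over 15551 genes and a call at an adjusted p under 0.1. The script was tested on simulated data. DESeq2 1.42.0, other scalings, no filter, smaller fits, halved counts, a replicate block and leaving out each library were tried. The genes, lists and rules were chosen with earlier results of these data known. In each list the 3 most abundant genes and the largest called change of each comparison were to be named, and for AZGP1 and PDZD3 the 5 genes most like each. SLC22A6, SLC22A8, AMN, SLC34A1 and the chromosomal neighbours were chosen after their values were seen, as were DPEP1, ALPL, AQPEP and KEL. Of 27673 genes, 22528 (81.4%) were placed on GENCODE release 44 lifted to GRCh37. Same-numbered libraries of different groups did not deviate together in all pairs.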

Additional observations from a re-analysis of the deposited data

Results flagged for a closer look

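The difference between the depletions passed the quasi-likelihood test of edgeR (p adjusted by Benjamini-Hochberg) for 5 genes, each lower in all 3 shARNT libraries than in all 3 shBMAL1 libraries. It was -0.84 on the log2 scale for PDZK1 (adjusted p = 2.07e-10), -0.75 for GGT1 (adjusted p = 6.56e-11) and -1.72 for MME (adjusted p = 7.92e-14), which fell in both depletions. It was -2.70 for ANPEP (adjusted p = 7.80e-23) and -1.73 for DPP4 (adjusted p = 2.93e-15), which fell in shARNT and rose in shBMAL1. Of all genes, 41.1% were called lower in this comparison. TMM factors differed between these groups (0.961 to 0.971 and 1.10 to 1.11), and their part in the differences was not tested beyond the scaling alternatives given with the processing. No group held more than 3 libraries, so single libraries were not screened as outliers.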

How the results depend on the processing

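The calls of the 9 genes kept their direction and side of the threshold under all 16 alternatives tried: 6 lower in shARNT, 6 lower and 2 higher in shBMAL1, and 5 lower in the direct comparison. Leaving out 1 library at a time, the log2 fold change in shARNT ranged from -6.96 to -6.44 for AZGP1 and from -6.41 to -6.00 for PDZD3. For CUBN in shBMAL1 it ranged from -1.53 to -1.02, and its uncalled difference between the depletions changed sign (-0.17 to 0.34). Scaling by library size alone moved the median of all genes from -0.01 to 0.23 in shARNT and to 0.18 in the direct comparison, and raised the share of higher genes among calls from 49.6% to 60.5% in shARNT. In the list of class I relatives, the count called lower in shBMAL1 was 0 or 1 depending on the fit, and the cause was not tested. Replicate numbers did not pair the samples, since correlations of deviations ran from -0.22 to 0.36 over 9 same-numbered pairs and exceeded 0.1 in 4. Between libraries with different numbers they ran from -0.27 to 0.41, with the highest between the second shControl and first shARNT library. Some libraries of different groups thus deviated together under other numbers. A batch shared in that way was not tested, and a block by replicate number does not cover it. With the replicate block, calls over all genes went from 12722 to 12683 in shARNT, from 9851 to 9832 in shBMAL1 and from 12630 to 12592 directly, and the members' counts remained 6, 6 and 5 lower. PDZD3 in shARNT rests on 5 to 9 reads per library and CUBN on 22 to 74, which limits both.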
